A study of Mus musculus with 16 samples.

Results

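The genes described here encode the proteins that carry out and steer pre-mRNA splicing, and the data give how much of their own RNA came down with the transcription factor Sox2 from male mouse embryonic stem cells (mESC). Members were the protein-coding rows of the count table whose mouse symbol begins with Srsf, Hnrnp, Rbm and a digit, Sf3a, Sf3b, U2af, Prpf or Snrp. This gave 107 of 53379 rows, of which 11 were SR genes (Srsf), 20 hnRNP genes (Hnrnp), 39 Rbm genes and 37 core snRNP genes (Snrp, Prpf, Sf3a, Sf3b and U2af). Another 10 rows with such symbols were pseudogenes or antisense genes and were left out. A member entered the tests if it had at least 3 UMIs in at least 1 library, which 99 of the 107 did, among 22936 genes tested in all. A UMI, or unique molecular identifier, marks copies made from the same RNA fragment so that each fragment is counted only a single time.

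Each of 8 culture plates of mESC was crosslinked, lysed and split into an input library and a library of the RNA that co-precipitated with a Sox2 antibody (IP). On 4 plates the crosslinker was formaldehyde, which also joins proteins to proteins (fRIP), and on the other 4 it was ultraviolet light, which joins RNA to proteins that touch it (UV-RIP). This made 4 groups of 4 libraries, numbered 3 to 6 in each, namely fRIP IP, fRIP input, UV-RIP IP and UV-RIP input. The cells of all 4 groups carried no transgene or deletion named in the labels, and all were grown on gelatin with serum, LIF at 1000 U/mL, PD0325901 at 1 µM (a MEK inhibitor) and CHIR99021 at 3 µM (a GSK3 inhibitor), which hold the cells in a pluripotent state. No library from a control antibody or from beads alone was analysed here, so each value compares an IP with its own input. A plate stands for a culture of the same male cells, which the study's methods trace to mouse blastocysts, and the strain was not given in the sources used here. Summed levels of 9 embryonic stem cell markers lay between 2190 and 4690 CPM in every library (CPM, the UMIs of a row scaled to a total of 1000000 per library), against 1.56 to 3.3 CPM for 7 fibroblast or feeder cell markers. The row of Sox2 itself, whose gene lies inside Sox2ot, was at 0 in all 16 libraries, so its level could not check the labels.

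Splicing removes introns from pre-mRNA in the spliceosome, whose small nuclear ribonucleoproteins (snRNPs) hold a short RNA, a ring of Sm proteins and proteins particular to each particle. SR proteins, named for their arginine and serine repeats, bind mostly to exonic enhancers and recruit the spliceosome, whereas hnRNPs coat nascent RNA and often act as silencers. Rbm is a naming class for proteins with an RNA recognition motif, and its members act in splicing, RNA decay or ribosome assembly. Many SR and hnRNP genes are abundantly expressed in stem cells, and several limit their own output through alternative exons that lead to mRNA decay. All values below concern the RNA of these genes, not the proteins.

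The members at the ends of the range differed in base composition, so a stretch of each is printed. Each line is the final 90 bases of the longest coding reading frame in the GENCODE vM21 transcripts (GRCm38), 5′ to 3′, with G and C in capitals. Rbm19 (chr5:120116465-120198981, + strand) was the member with the highest fRIP enrichment, Snrpe (chr1:133603871-133610291, - strand) that with the lowest, Prpf40b (chr15:99295087-99317018, + strand) that with the highest UV-RIP enrichment among members with a mean of 50 or more UMIs, and Prpf38b (chr3:108902805-108911727, - strand) that with the lowest.
Rbm19: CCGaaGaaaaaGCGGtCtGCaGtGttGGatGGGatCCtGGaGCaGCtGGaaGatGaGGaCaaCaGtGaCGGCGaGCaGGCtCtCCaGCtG
Snrpe: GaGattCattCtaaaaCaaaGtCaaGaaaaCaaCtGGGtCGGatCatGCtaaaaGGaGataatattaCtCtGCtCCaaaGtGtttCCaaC
Prpf40b: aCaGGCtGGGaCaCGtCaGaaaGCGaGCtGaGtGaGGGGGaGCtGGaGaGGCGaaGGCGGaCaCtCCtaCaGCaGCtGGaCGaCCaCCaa
Prpf38b: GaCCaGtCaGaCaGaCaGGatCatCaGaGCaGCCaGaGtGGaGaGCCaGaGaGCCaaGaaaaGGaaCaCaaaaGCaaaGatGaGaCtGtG
G and C made up 57.8% of the stretch of Rbm19 and 62.2% of that of Prpf40b, against 36.7% for Snrpe and 50% for Prpf38b. Over the whole coding sequence the shares were 56.4% for Rbm19, 57.5% for Prpf40b, 42.0% for Snrpe and 50.8% for Prpf38b, so the order of the 4 genes was kept with smaller gaps. The stretch is only a sample of each gene, since the first 90 coding bases of Prpf38b held 70% G and C.

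Totals ran from 12456298 to 21211537 UMIs per library. A pair of fRIP libraries stood apart. Replicate 4 of fRIP input was the far one of its group of 4 in 5.80% and replicate 5 of fRIP IP in 5.43% of 10985 protein-coding genes, against 0.364% to 1.73% for the other 14 libraries. The non-coding RNA Gm26917 took 12.4% of replicate 5 of fRIP IP and 5.44% to 6.81% of the other fRIP IP libraries. In UV-RIP it took 18.4% to 22.3% of the IP libraries and 12% to 12.3% of the input libraries, and the median gene there had a log2 fold change of -0.17. That median was 0.01 with TMM scaling and -0.02 with Gm26917 and Gm42418 taken out of the totals, and in fRIP it was -0.03 as reported. Levels come from bulk lysates, in which fewer cells of a type and less RNA per cell cannot be told apart.

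Not every member could be measured. Rbm12, Rbm14, Rbm15b, Rbm4, Rbm42, Rbm8a2 and U2af1l4 had at most 1 UMI per library, and 97.9% to 100% of the length of each was covered by another gene of the same strand, so that nearly all of their sequence lies in more than 1 gene of the annotation. Rbm31y, the last of the 8 untested members, was at 0 in all libraries. Rbm11, Rbm24, Rbm46, Srsf12 and Snrpn were tested with a mean under 50 UMIs per library (2.25, 14.5, 7.56, 24.2 and 38), and no change was called for any of them. Sequence shared with other genes, such as retrocopies, was the other limit, because reads that map to several places were discarded. Of the 34-base words in its longest transcript, the median member shared 5.1% with another gene's transcripts on either strand, and 31 members shared over 20%. Introns were not part of this count. Among the members named below the share was 91.7% for Snrpf, 70.1% for Hnrnpf and 63.2% for U2af1.

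The first comparison asks which of these RNAs were over- or under-represented among the RNAs brought down with Sox2 after formaldehyde crosslinking. The RNA of 38 members was depleted in the IP and that of 3 was enriched, a change being called at a fold above 1.5 and an adjusted p below 0.05 (quasi-likelihood test of edgeR with plates as blocks, Benjamini-Hochberg adjusted across the genes tested, n = 4 plates). Over all genes tested the test called 10.9% depleted and 8.81% enriched, so 38.4% of the 99 members tested were depleted and 3.03% enriched. With no fold threshold 75 members were lower and 8 higher in IP at an adjusted p below 0.05, beside 21.7% and 17.2% of all genes. The median member had a log2 fold change of -0.50, beside -0.03 for all genes, and 69 members had every IP library below every input library (19.2% of all genes did), while 5 had every IP library above every input library (15.3% of all genes). All members together made up 1.51% ± 0.075 (SD, n = 4) of the UMIs of fRIP input and 1.09% ± 0.043 of those of fRIP IP. Without replicate 4 the counts were again 38 and 3, with 34 of the 38 depleted members in common, and without replicate 5 they were 38 and 3 with 37 in common.

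The 4 groups were depleted to different extents. Of the SR genes 7 of 11 were depleted and none enriched (median log2 fold change -0.71), and of the hnRNP genes 11 of 20 and none (median -0.66). In edgeR 1 SR gene and no hnRNP gene had a higher IP level at an unadjusted p below 0.05, and DESeq2 with total UMIs as size factors gave the same counts of 7 and 11 depleted and 0 enriched, while with its median-of-ratios size factors it gave 6 and 10 depleted and 0 enriched. With the trend of fold change on gene length removed 4 SR and 6 hnRNP genes were depleted, beside 5.56% of all genes, and with the trend on transcript GC content removed again 4 and 6, beside 9.74%. Of the core snRNP genes 14 of the 36 tested were depleted and 1 enriched (median -0.53). The Rbm genes lay nearest to the background, with 6 of 32 depleted and 2 enriched (median -0.40). As shares of the library, the SR genes went from 0.194% ± 0.011 in fRIP input to 0.117% ± 0.0046 in fRIP IP and the Rbm genes from 0.309% ± 0.018 to 0.265% ± 0.021 (SD, n = 4 each). The medians on single plates ran from -0.79 to -0.70 for SR and from -0.67 to -0.55 for hnRNP genes. They ran from -0.54 to -0.49 for core snRNP and from -0.40 to -0.35 for Rbm genes. No group overlapped another on this scale, and the difference between groups was not tested. The order of the SR, hnRNP and core snRNP groups depended on the length trend. Relative to all genes the medians without it were -0.38 for SR, -0.47 for hnRNP, -0.39 for core snRNP and -0.30 for Rbm genes, so that hnRNP was lowest.

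**Figure D1:**
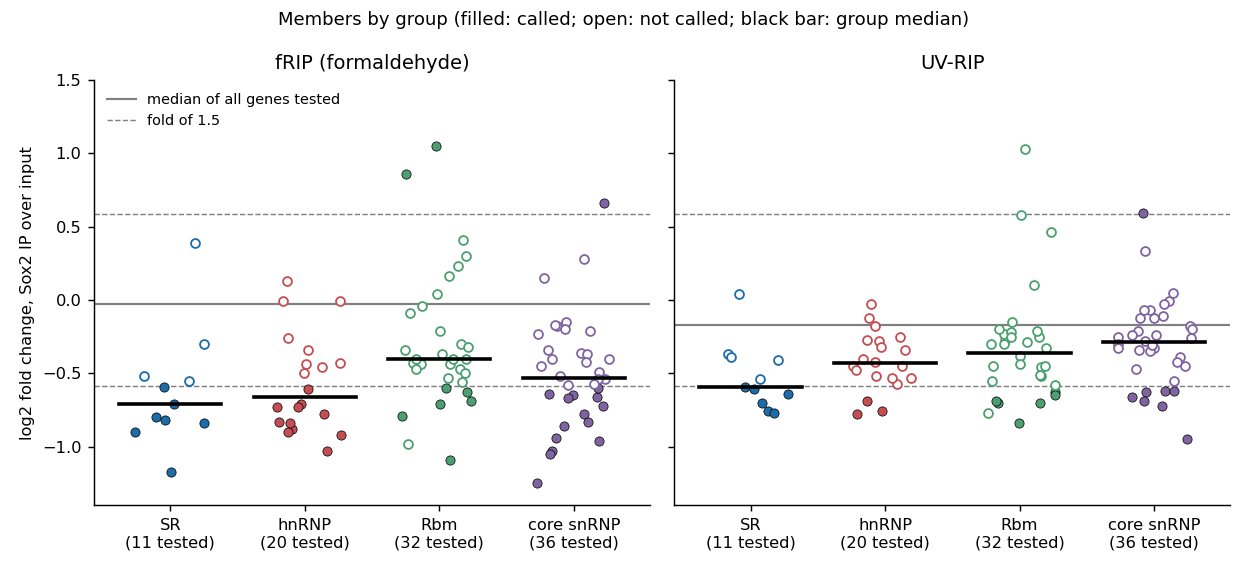
Log2 fold change of IP over input for each tested member in fRIP and UV-RIP, by group, with called members filled, members not called open, the group median as a black bar, the median of all genes as a grey line and the 1.5-fold thresholds dashed. In both assays most points lie below the median of all genes, and in fRIP the SR median (-0.71) is lowest, which did not hold with the length trend removed, and the Rbm median (-0.40) highest.

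Among the SR genes the deepest depletion was that of Srsf1, the founding member of the family. It had 360, 420, 337 and 377 CPM in fRIP input and 164, 175, 161 and 162 CPM in fRIP IP. Every IP library thus lay far below every input library, with a log2 fold change of -1.17 (SE 0.07, adjusted p = 1.19e-06). Srsf7, which carries a zinc knuckle beside its RNA recognition motif, had 189, 241, 174 and 175 CPM in input and 104, 109, 96.1 and 106 CPM in IP (log2 fold change -0.90, SE 0.08, adjusted p = 5.93e-06). Its groups did not overlap, and replicate 4 was the highest input library. Srsf2 and Srsf3, a pair of widely expressed SR proteins, fell by 0.80 and 0.82 on the log2 scale (adjusted p = 4.14e-06 and 4.97e-06). Srsf2 was not called with the length trend removed (-0.33), nor Srsf3 with the GC trend removed (-0.56). Srsf2 lies wholly under Mettl23 and Mfsd11 on the opposite strand, and the strand setting of the counting was not given in the sources used here, so its count may hold reads of those genes. Srsf4, a long SR protein, went the other way. It had 132, 141, 129 and 132 CPM in IP and 106, 90.7, 104 and 109 CPM in input, groups that did not overlap, but its 1.31-fold ratio was not called (adjusted p = 0.00166). Of its 34-base words 48.1% were shared with other genes.

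Among the hnRNP genes Hnrnpa2b1, which encodes a pair of nuclear A/B-type proteins, was lowest. It had 533, 582, 498 and 521 CPM in fRIP input and 263, 269, 249 and 266 CPM in fRIP IP, so that the IP level was 0.491 of the input level on the fitted scale (log2 fold change -1.03, SE 0.07, adjusted p = 1.53e-06). The next lowest was Hnrnpk, whose KH domains bind C-rich RNA, with 319, 434, 335 and 325 CPM in input and 177, 201, 176 and 187 CPM in IP (log2 fold change -0.92, adjusted p = 3.35e-06). Neither gene's IP libraries reached its input libraries. Without replicate 4, whose input value for Hnrnpk was the highest, the log2 fold change was -0.86. Hnrnpu, also known as scaffold attachment factor A, had 828, 916, 840 and 813 CPM in input and 482, 520, 445 and 465 CPM in IP (log2 fold change -0.83, adjusted p = 3.14e-06). Hnrnpc, which binds uridine tracts, and Hnrnph1, which binds G tracts, fell by 0.73 and 0.78 (adjusted p = 2.48e-05 and 1e-05). With the GC trend removed Hnrnpc, Hnrnph1 and Hnrnpu were not called, and Hnrnph1 was not called with the length trend removed either. At the upper end Hnrnpf and Hnrnpdl had log2 fold changes of 0.13 and -0.01 (adjusted p = 0.153 and 0.941), with overlapping groups, although Hnrnpf was higher in IP on all 4 plates (0.13, 0.23, 0.04 and 0.11). Hnrnpul2, which overlaps a neighbouring gene over 30.9% of its length, was at -0.44 and was not called at 1.5-fold (adjusted p = 0.000205).

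The core snRNP genes were read by symbol prefix, and a prefix can hold proteins of different particles. Of the 12 Snrp genes, which encode Sm ring and U1 or U2 proteins, 8 were depleted and none was enriched, beside 10.9% and 8.81% of all genes. Snrpe, an Sm ring subunit, had 45.3, 67.8, 49.1 and 39.8 CPM in fRIP input and 20.4, 23.4, 17.8 and 22.5 CPM in fRIP IP (log2 fold change -1.25, SE 0.11, adjusted p = 5.94e-06). Snrpd2, another Sm subunit, had 14.8, 28.5, 17.9 and 14.9 CPM in input and 7.9, 8.71, 9.71 and 9.68 CPM in IP (log2 fold change -1.05, SE 0.15, adjusted p = 0.000138). For both, the IP libraries lay wholly below the input libraries and replicate 4 was the highest input, and without that replicate the log2 fold changes were -1.15 and -0.80. Of the 6 Sf3b genes, which encode the part of the U2 snRNP that clasps the branch point, 3 were depleted, against the same 10.9%. The lowest was Sf3b5, with 20.7, 38.2, 29.9 and 21.9 CPM in input and 10.6, 12.6, 16.6 and 13.7 CPM in IP (log2 fold change -1.03, SE 0.13, adjusted p = 5.93e-05, and -0.83 without replicate 4). Sf3b3 was at -0.17 with overlapping groups (adjusted p = 0.0616), and none of the 3 Sf3a genes was called.

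Among the 13 Prpf genes 3 were depleted and 1 was enriched, 23.1% and 7.69% beside 10.9% and 8.81% of all genes, so the enriched share was near the background. The enriched one was Prpf40b, a relative of a yeast U1 snRNP protein, with 78.1, 83.1, 84.3 and 88.5 CPM in fRIP IP and 50.3, 48.2, 56.5 and 56.6 CPM in fRIP input. All 4 IP libraries lay above all 4 input libraries, a 1.58-fold rise (log2 fold change 0.66, SE 0.07, adjusted p = 2.19e-05). With the GC trend removed it was at 0.53 and was not called. Prpf38b, a relative of a yeast protein needed for spliceosome activation, had 92.8, 71.4, 79.1 and 83 CPM in input and 53.4, 50.8, 51.9 and 49.8 CPM in IP (log2 fold change -0.66, SE 0.08, adjusted p = 3.38e-05), a call that neither trend fit kept. Prpf8, the large protein at the catalytic centre, had 786, 927, 867 and 792 CPM in input and 675, 755, 764 and 676 CPM in IP. These groups were separate by a narrow gap, and the log2 fold change of -0.23 was not called (adjusted p = 0.0118). U2af1, which reads the AG at the end of an intron, was at 0.28 (adjusted p = 0.00437) and was not called either.

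The Rbm genes had the widest spread, from -1.09 for Rbm8a to 1.05 for Rbm19. Rbm19, a nucleolar protein of ribosome assembly, had 199, 198, 215 and 188 CPM in fRIP IP and 102, 80.1, 102 and 103 CPM in fRIP input. Every IP library was above every input library, and the ratio was 2.08-fold (log2 fold change 1.05, SE 0.08, adjusted p = 3.02e-06, and 0.97 without replicate 4, the low input library). Rbm20, the regulator of titin splicing in the heart, had 124, 124, 106 and 122 CPM in IP and 73.8, 56.3, 60.8 and 72.5 CPM in input (1.82-fold, log2 fold change 0.86, adjusted p = 9.09e-06). It too had separate groups, but with the length trend removed it was at 0.47 and was not called, while Rbm19 was at 0.85 and kept its call. Rbm8a, the Y14 subunit of the exon junction complex, had 65.1, 102, 79.2 and 74.7 CPM in input and 30.7, 37.2, 45.6 and 36.1 CPM in IP (log2 fold change -1.09, SE 0.10, adjusted p = 6.35e-06). Rbm7, which works with the nuclear exosome, fell by 0.79 (adjusted p = 0.000111, and by 0.65 without replicate 4), and neither trend fit called it. Rbm25, which acts on 5′ splice site choice, had 599, 552, 478 and 563 CPM in input and 392, 389, 298 and 376 CPM in IP. Replicate 5 was the lowest library in both groups, and the log2 fold change of -0.60 (adjusted p = 2.4e-05) passed 1.5-fold only just, being -0.57 without replicate 5, -0.55 with TMM scaling and -0.27 with the GC trend removed. With the length trend removed Rbm25 was at -0.70 and kept its call. Rbm39, a U2af2-related factor, and Rbm38, an mRNA stability factor, were at -0.40 and 0.41. Their groups overlapped, but within plates Rbm39 was lower in IP on all 4 (-0.32, -0.36, -0.61 and -0.34) and Rbm38 higher on all 4 (0.29, 0.77, 0.26 and 0.32). Both passed the adjusted p (0.000697 and 0.0039) and not the fold of 1.5.

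**Figure D2:**
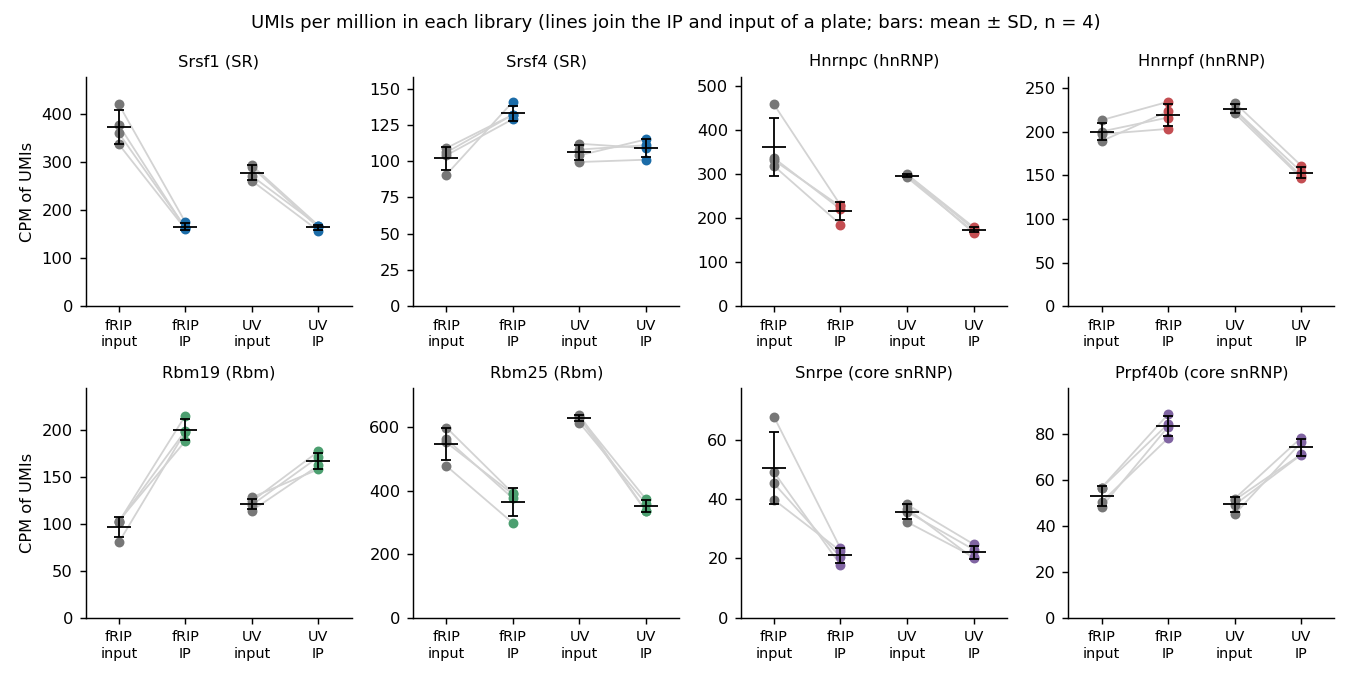
Level in CPM of Srsf1, Srsf4, Hnrnpc, Hnrnpf, Rbm19, Rbm25, Snrpe and Prpf40b in each of the 16 libraries, with a line joining the input and the IP of a plate and the mean ± SD of each group of 4. Srsf1 falls on all 8 plates, Rbm19 and Prpf40b are higher in IP on all 8, and Hnrnpf is lower in IP on the UV-RIP plates while its fRIP groups overlap.

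The second comparison asks the same after ultraviolet crosslinking. With no control library, RNA joined to Sox2 could not be told from RNA carried along. Here 22 members were depleted and 1 was enriched, beside 5.48% of all genes depleted and 0.650% enriched. With no fold threshold 79 members were lower and 4 higher in IP at an adjusted p below 0.05, beside 27.7% and 6.03% of all genes. The median member had a log2 fold change of -0.37 and the median gene -0.17. A total of 77 members had every IP library below every input library, which 25.0% of all genes did, and 4 had every one above (4.93% of all genes). The members' summed share went from 1.25% ± 0.016 in UV-RIP input to 0.964% ± 0.024 in UV-RIP IP (SD, n = 4). The count depended on how libraries were scaled. With TMM scaling 4 members were depleted and 3 enriched, beside 1.80% and 2.11% of all genes, and in a fit from which the trend of fold change on transcript GC content had been removed none was called in either direction (1.44% and 1.06% of all genes), although with no fold threshold 50 had lower and 11 higher IP levels at an adjusted p below 0.05 (10.9% and 11.6% of all genes) and 55 and 13 at an unadjusted p below 0.05 in edgeR (15.5% and 16%). The median of all genes was 0.01 with TMM and 0 without the GC trend. Relative to that median the members lay at -0.20 as reported and -0.14 without the GC trend, the SR genes at -0.42 and -0.27, and the hnRNP genes at -0.26 and -0.13. As reported, the SR genes were 6 of 11 depleted (median -0.59), the hnRNP genes 3 of 20 (-0.43), the Rbm genes 6 of 32 (-0.36) and the core snRNP genes 7 of 36 with 1 enriched (-0.29). The 4 depleted with TMM scaling were Srsf3, Hnrnpc, Rbm25 and Prpf38b, 1 in each group, so the other 18 lost the call, as all 22 did without the GC trend.

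Of the SR genes Srsf3, the shortest SR protein, and Srsf1 were lowest in UV-RIP. Srsf3 had 212, 201, 215 and 216 CPM in UV-RIP input and 119, 121, 129 and 127 CPM in UV-RIP IP (log2 fold change -0.77, SE 0.04, adjusted p = 4.56e-10). Srsf1 had 289, 261, 271 and 293 CPM in input and 164, 157, 168 and 168 CPM in IP (-0.76, SE 0.04, adjusted p = 5.34e-10). In both genes the input libraries were all higher than the IP libraries. Srsf7 fell by 0.64 (adjusted p = 5.62e-09), and Srsf11 by 0.59, a call that did not hold when replicate 3, 4 or 6 was left out (-0.58 each time). Srsf2 at -0.54 missed the fold threshold, and Srsf4 had overlapping groups at 0.04 (adjusted p = 0.496).

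The 3 depleted hnRNP genes were Hnrnpc, Hnrnph1 and Hnrnpa2b1. Hnrnpc had 298, 293, 299 and 300 CPM in UV-RIP input and 167, 170, 176 and 180 CPM in UV-RIP IP (log2 fold change -0.78, SE 0.04, adjusted p = 3.19e-10). Hnrnph1 had 274, 274, 257 and 265 CPM in input and 162, 148, 156 and 164 CPM in IP (-0.76, adjusted p = 8.31e-10), and Hnrnpa2b1 fell by 0.69 (adjusted p = 9.87e-10). No IP library of these genes came near the input range. With TMM scaling the log2 fold changes were -0.60, -0.58 and -0.51, of which only that of Hnrnpc was called. Hnrnpf, Hnrnpk and Hnrnpu, with log2 fold changes of -0.57, -0.45 and -0.40, also had separate groups but did not pass 1.5-fold (adjusted p = 5.16e-09, 5.8e-08 and 3.12e-07).

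Among core snRNP and Rbm genes the deepest UV-RIP depletion was that of Prpf38b. It had 82.9, 86.6, 82.6 and 86.2 CPM in UV-RIP input and 41.8, 43.4, 45 and 44.7 CPM in UV-RIP IP, an IP level 0.517 of the input (log2 fold change -0.95, SE 0.04, adjusted p = 3.57e-10). Rbm25 had 629, 638, 633 and 614 CPM in input and 335, 336, 373 and 359 CPM in IP (-0.84, SE 0.04, adjusted p = 2.59e-10). Snrpe, with 36.8, 32.3, 38.2 and 35.8 CPM in input and 20, 20.5, 24.8 and 23 CPM in IP, fell by 0.69 (adjusted p = 1.14e-07), and Rbm8a by 0.65 (adjusted p = 9.69e-08). In each of these the 4 IP libraries lay below the 4 input libraries. No Sf3a, Sf3b or U2af gene was called. Sf3b5, deeply depleted in fRIP, was at -0.24 (adjusted p = 0.0245).

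Prpf40b was the member enriched in UV-RIP, as in fRIP. It had 70.9, 71.1, 76.3 and 78.3 CPM in UV-RIP IP and 49.1, 51.2, 45 and 51.8 CPM in UV-RIP input, again without overlap (1.51-fold, log2 fold change 0.59, SE 0.05, adjusted p = 1.25e-07). Without replicate 5 its log2 fold change was 0.53, below the fold threshold, and Rbm38 was the member called instead, at 0.61. A pair of Rbm genes came close to the threshold. Rbm38 had 32.6, 36.7, 28 and 33.7 CPM in IP and 21.9, 23.1, 20.3 and 22.3 CPM in input (1.49-fold, adjusted p = 5.48e-07), and Rbm19 had 171, 158, 162 and 177 CPM in IP and 120, 128, 114 and 124 CPM in input (1.37-fold, adjusted p = 3.06e-07). Both had separate groups, and with TMM scaling their log2 fold changes of 0.76 and 0.64 passed 1.5-fold. Prpf40b, at 0.58 without the GC trend, was not called in that fit. Rbm20, enriched in fRIP, was at 0.10 with overlapping groups (adjusted p = 0.0864). Prpf8 was higher in every IP library, at 0.33, but was not called (adjusted p = 6.45e-06).

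There were 16 members depleted in both assays, which use separate plates and separate inputs. These 16 were 42.1% of the 38 depleted in fRIP and 72.7% of the 22 depleted in UV-RIP. Over all genes tested, the 532 depleted in both were 21.3% of the 2493 depleted in fRIP and 42.3% of the 1257 depleted in UV-RIP. The overlap fell with the UV-RIP calls, to 3 members with TMM scaling (Srsf3, Hnrnpc and Prpf38b, 8.82% of the fRIP calls, beside 9.40% for all genes), 5 with DESeq2 median-of-ratios size factors (14.7%, beside 8.72%), 2 with the length trend removed (8.33%, beside 11.7%) and 0 with the GC trend removed (beside 8.14%). The share of the fRIP calls was thus above that of all genes in some settings and below it in others. As a share of the UV-RIP calls the overlap was 75% of 4 with TMM scaling, beside 49.9% for all genes. It was 83.3% of 6 with median-of-ratios size factors (69.5%) and 66.7% of 3 with the length trend removed (40.2%), above all genes each time. With the GC trend removed no UV-RIP call was left. By group the 16 were 5 SR genes (Srsf1, Srsf3, Srsf5, Srsf7 and Srsf10), 3 hnRNP genes (Hnrnpa2b1, Hnrnpc and Hnrnph1), 3 Rbm genes (Rbm8a, Rbm25 and Rbm48) and 5 core snRNP genes (Prpf38a, Prpf38b, Snrpd1, Snrpe and Snrpf). For SR genes the 5 were 71.4% of the fRIP and 83.3% of the UV-RIP calls, and for hnRNP genes the 3 were 27.3% of the fRIP calls and all 3 of the UV-RIP calls, a difference between groups that was not tested.

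The third comparison asks where the enrichment itself differed between the crosslinkers, by an interaction term fitted over all 16 libraries with the 8 plates as blocks. At an adjusted p below 0.05 the enrichment was lower in fRIP than in UV-RIP for 30 members and higher for 16, beside 7.69% and 18.3% of all genes. The median difference was -0.12 for the members and 0.14 for all genes. The hnRNP genes (10 lower, 3 higher, median -0.23), the core snRNP genes (14 lower, 3 higher, median -0.21) and the SR genes (4 lower, 1 higher, median -0.14) had more calls on the lower side, whereas the Rbm genes had 2 lower and 9 higher with a median of 0.05. These counts and the Rbm contrast depended on scaling. With TMM scaling 8 members were higher and 40 lower, beside 13.1% and 11.9% of all genes, and the median gene stood at 0.03. The Rbm genes were then 5 higher and 3 lower (median -0.06), and with the length trend removed 1 higher and 2 lower (median -0.06). In that length fit the SR genes were 1 lower and none higher, beside 8.33% and 6.91% of all genes (median -0.04, with 2 lower and 1 higher at an unadjusted p below 0.05 in edgeR), so their balance of calls did not hold there. Among core snRNP genes the lower side held 6 of 12 Snrp and 4 of 6 Sf3b genes.

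Sf3b5 had the most negative difference among the called members, -0.79 (SE 0.17, adjusted p = 0.00204), as its fRIP ratio was 0.49 and its UV-RIP ratio 0.845. Snrpd2 followed at -0.64 (adjusted p = 0.0185, but not called without replicate 3, at -0.59, without replicate 4, at -0.38, or with the length trend removed, at -0.45), and Snrpe and Prpf8 each at -0.56 (adjusted p = 0.00498 and 3.35e-05). The Snrpe difference was -0.46 and not called without replicate 5. For Prpf8 the assays pointed in different directions, with an fRIP ratio of 0.852 and a UV-RIP ratio of 1.25, although neither alone was called. In the hnRNP group the differences were -0.48 for Hnrnpk, -0.43 for Hnrnpu and -0.42 for Hnrnpul2 (adjusted p = 0.000276, 0.000221 and 0.000488). Srsf1, called as depleted in both assays, was lower in fRIP by 0.41 (-0.41, SE 0.07, adjusted p = 0.000523).

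On the other side Rbm20 had a difference of 0.76 (SE 0.09, adjusted p = 2.18e-05), Hnrnpf one of 0.70 (SE 0.07, adjusted p = 5.74e-06) and Rbm19 one of 0.60 (SE 0.09, adjusted p = 0.000172). In UV-RIP the IP libraries had for Hnrnpf 149, 147, 161 and 154 CPM and the input libraries 224, 221, 233 and 225 CPM, whereas in fRIP the IP had 234, 223, 203 and 216 CPM and the input 213, 189, 197 and 200 CPM. Its fRIP groups overlapped and its UV-RIP groups were far apart. Srsf4 and U2af1 each stood at 0.35 (adjusted p = 0.00734 and 0.00176). Rbm25 and Prpf38b, at 0.25 and 0.29, were depleted in both assays but less in fRIP (adjusted p = 0.0159 and 0.0184). Neither of these differences held with TMM scaling, at 0.13 and 0.17. With the length trend removed that of Rbm25 was 0, while that of Prpf38b was 0.35 and kept its call. Both were also lost without replicate 3 or 6, and that of Prpf38b without replicate 5. That of Rbm19 was 0.27 with the length trend removed and that of Srsf4 0.20, neither called, and Srsf4 was not called without the GC trend or without replicate 3 either. For Hnrnpc, Hnrnph1, Srsf3 and Prpf40b the difference was between -0.05 and 0.07 and did not pass the threshold.

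**Figure D3:**
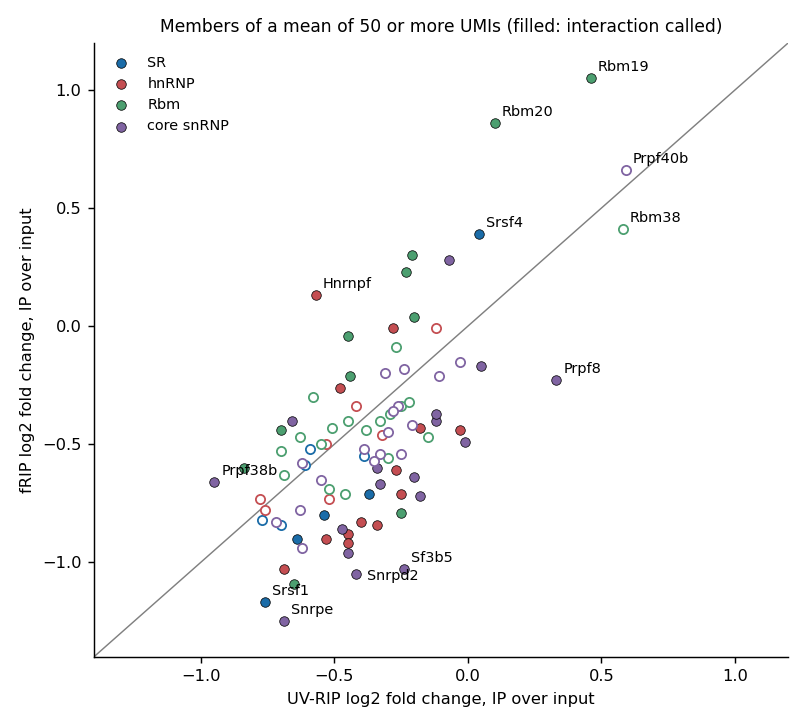
Log2 fold change of IP over input in fRIP (vertical axis) against that in UV-RIP (horizontal axis) for the 94 members with a mean of 50 or more UMIs, coloured by group, with members of called interaction filled and a diagonal of equal enrichment. Most members lie in the quadrant below 0 in both assays, Rbm20 (difference 0.76) and Hnrnpf (0.70) lie far above the diagonal, and Sf3b5 (-0.79) and Snrpd2 (-0.64) far below it.

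The members also differed in gene structure, which the rule did not use. Counts were made over whole gene bodies, introns included. Among the 94 members with a mean of 50 or more UMIs the median gene body was 6800 bases for SR, 12964 for hnRNP, 15585 for core snRNP and 23900 for Rbm genes, against 28454 for 10985 protein-coding genes at the same depth. Exons made up a median of 61.6% of the gene body of SR genes, 47.0% of that of hnRNP genes, 27.7% of that of core snRNP genes and 21.0% of that of Rbm genes. The 4 groups had the same order by median gene body and by median fRIP log2 fold change. Across the 94 members, which share libraries and so are not independent, the fRIP log2 fold change had a Pearson correlation of 0.61 with log2 gene body length and 0.55 with transcript GC content. The UV-RIP log2 fold change had 0.21 with length and 0.70 with transcript GC content. The same values over the 10985 protein-coding genes were 0.60 and 0.31 in fRIP and 0.23 and 0.54 in UV-RIP, so trends of the same sign were present across protein-coding genes. The interaction followed length, at 0.64 in both sets.

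**Figure D4:**
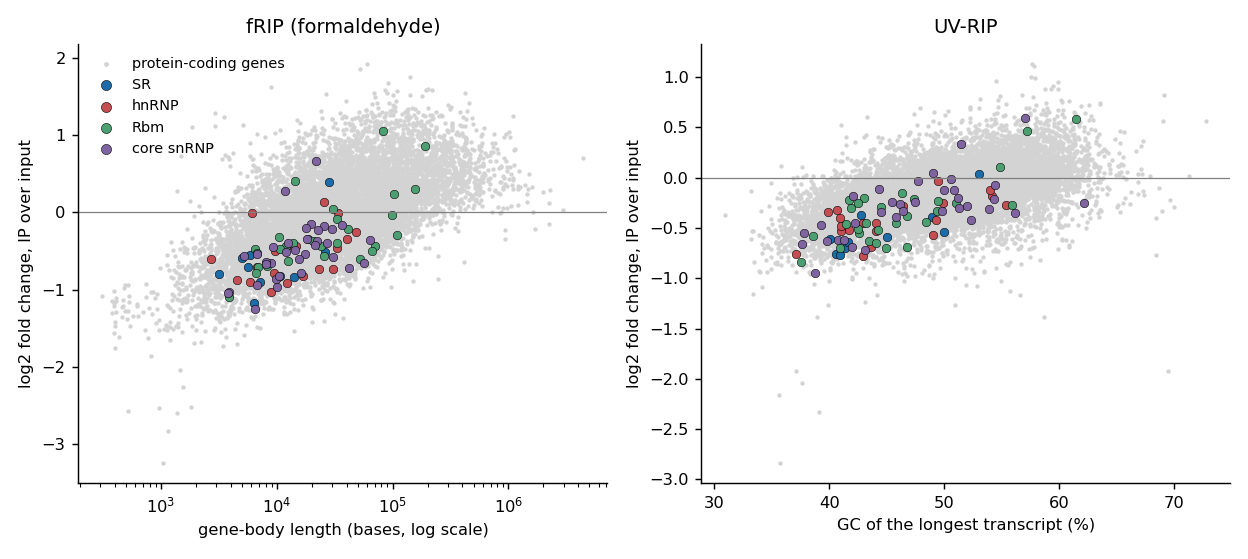
Log2 fold change in fRIP against gene body length in bases (log axis) and in UV-RIP against transcript GC content in percent, for the 94 members with a mean of 50 or more UMIs coloured by group over 10985 protein-coding genes in grey. Short members lie low in fRIP (Pearson 0.61 across members) and members of low GC content lie low in UV-RIP (0.70).

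Transcript GC content was a median of 42.2% in SR, 43.8% in hnRNP, 44.5% in Rbm and 47.5% in core snRNP genes, against 49.6% in the protein-coding genes. For UV-RIP the correlation over the 94 members was 0.65 with the GC content of the noncoding exonic part, 0.44 with that of the coding sequence and 0.40 with that of the last 90 coding bases, the stretch printed above. For fRIP these were 0.50, 0.25 and 0.24, and the differences between these correlations were not tested. With the trend on gene length removed from the fit, 24 members were depleted in fRIP and 2 enriched (5.56% and 9.31% of all genes), and with the trend on transcript GC content removed 22 and 2 (9.74% and 8.36% of all genes). The fRIP medians relative to all genes were then -0.39 and -0.41, beside -0.47 as reported, so the members stayed below the median gene in both fits. The SR median moved most, from -0.68 to -0.38 with the length trend removed.

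Other genes of the pathway were taken from 70 splicing genes outside the symbol rule, apart from Rbm8a, which is on both lists. In fRIP 20 of the 70 were depleted and 1 was enriched (median -0.36), beside 10.9% and 8.81% of all genes, and in UV-RIP 14 were depleted and none enriched (median -0.32), beside 5.48% and 0.650%. The interaction was called higher in fRIP for 18 and lower for 17, beside 18.3% and 7.69% of all genes. The exon junction complex, which marks spliced junctions and holds Rbm8a, had 3 of 5 genes depleted in fRIP. Its subunit Magoh, the partner of Rbm8a, fell by 1.31 in fRIP and was at -0.39 in UV-RIP, a difference of -0.92 (adjusted p = 0.000226). Among 25 other spliceosome genes 9 were depleted in fRIP and 2 in UV-RIP. Another list held the 6 kinases of SR proteins (Clk1 to Clk4, Srpk1 and Srpk2). None was called in fRIP, Clk1 alone was depleted in UV-RIP (-0.76, adjusted p = 1.68e-09), and all 6 had a higher enrichment in fRIP than in UV-RIP, by 0.22 to 0.62, a direction called for 18.3% of all genes. The 70 genes were looked at only with library totals as sizes, where the median gene stood at 0.14 in the interaction and -0.17 in UV-RIP. Their calls under other scalings were not examined. TMM scaling cut the members' own UV-RIP depletions from 22 to 4. Among 8 SR-related genes Pnn, a desmosome and speckle protein, fell by 0.83 in fRIP and 1.00 in UV-RIP (adjusted p = 2.41e-05 and 1.36e-09).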

How the data were processed

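RNA was collected from 16 libraries of male mESC, and totals ranged from 12456298 to 21211537 UMIs. Per the labels and the study's methods, the authors depleted ribosomal RNA, sequenced paired ends with UMI adaptors, aligned to mm10 with STAR, kept reads with 1 position, and deposited whole-number UMI counts per GENCODE vM16 gene body, introns included. Tool versions and the strand setting are not given in the sources used here.

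Fold changes came from edgeR 4.0.16 (quasi-likelihood, R 4.3.3) on those counts, with library totals as sizes, plates as blocks, and Benjamini-Hochberg adjustment over the 22936 genes with 3 UMIs in any library. IP and input of a plate share a lysate. Their deviations from the group means correlated at 0.11 to 0.60 in fRIP and 0.03 to 0.44 in UV-RIP (10208 genes). Replicate pairs differed by more than sampling noise (chi-square per degree of freedom at least 1.72). Coordinates and lengths came from GENCODE vM21 on the same build, in which 94 of 107 members matched by identifier and version, and coordinates are printed for these alone.

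Members, groups and gene lists were chosen with earlier results of these data known. Named in the text are, in each group, the 2 members with most input CPM, the 2 highest and 2 lowest in fRIP and the extremes in UV-RIP among those with a mean of 50 or more UMIs, and, over all members, up to 6 UV-RIP calls in each direction and the 3 largest called interactions in each direction. Other members are named only as parts of short counts, after their values were seen. Alternatives were DESeq2 1.42.0, other scalings, filters, no block, and single replicates left out. Fits with length or GC trends removed (span 0.3) used the block. The GC and legacy edgeR fits were chosen after seeing the data. CPM is compared between libraries, not between genes.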

Additional observations from a re-analysis of the deposited data

Results flagged for a closer look

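Single libraries that lay far from the other 3 of their group were looked for in 136 sets of 4, and 12 were found (8.8%), where chance gives about 1 in 20. Replicate 4 of fRIP input held 7 of them. It had 80.1 CPM of Rbm19 (102 to 103 in the others), 41.8 of Rbm7 (25.9 to 27.6), 459 of Hnrnpc (319 to 337), 337 of Hnrnph1 (248 to 260) and 434 of Hnrnpk (319 to 335). The share of its UMIs from all members was 1.62% (1.46% to 1.48%) and that from hnRNP genes 0.613% (0.546% to 0.552%). Replicate 5 of fRIP IP had 106 CPM of Rbm20, against 122 to 124. In UV-RIP, replicate 3 of IP had 16 CPM of Rbm7 (18 to 18.3), replicate 4 of input had 307 CPM of Sf3b3 (322 to 324) and 293 CPM of Hnrnpc (298 to 300), and replicate 4 of IP had 0.108% of its UMIs from SR genes (0.111% to 0.112%).

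The enrichment of 22 of the 29 named members differed between the crosslinkers by the interaction test (adjusted p below 0.05), 8 of them higher and 14 lower in fRIP, beside 18.3% and 7.69% of all genes. The 29 include the 6 chosen for the largest called interactions. Most of the others were chosen as extremes in fRIP or UV-RIP or as UV-RIP calls, the values whose difference is the interaction. The count is thus no evidence about the members at large. With TMM scaling 5 were higher and 14 lower, and with the length trend removed 5 and 10. The fRIP minus UV-RIP differences on the log2 scale among Rbm genes were 0.60 for Rbm19, 0.76 for Rbm20, 0.25 for Rbm25, -0.54 for Rbm7 and -0.44 for Rbm8a. Among SR genes they were -0.41 for Srsf1, -0.26 for Srsf2, 0.35 for Srsf4 and -0.26 for Srsf7. Among core snRNP genes they were 0.29 for Prpf38b, -0.56 for Prpf8, -0.23 for Sf3b3, -0.79 for Sf3b5, -0.64 for Snrpd2, -0.56 for Snrpe and 0.35 for U2af1. Among hnRNP genes they were -0.33 for Hnrnpa2b1, 0.27 for Hnrnpdl, 0.70 for Hnrnpf, -0.48 for Hnrnpk, -0.43 for Hnrnpu and -0.42 for Hnrnpul2.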

How the results depend on the processing

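Counts of depleted members moved with scaling, the fold threshold and gene trends. Precision rests on 4 plates per crosslinker. No fit with gene-body GC content was run, as no genome sequence was used. Of the values of named members under alternatives, 1104 kept their call or stayed without one, 103 lost a call and 10 gained one. Among values called as reported 1 turned, the Rbm25 interaction, from 0.25 to 0 with the length trend removed. Direction was not followed for values that stayed without a call. Some of these changed sign, such as Hnrnpul2 in UV-RIP, from -0.03 to 0.16 with TMM scaling. Except where a value's own construction shows it, the cause was not tested.

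In fRIP the 3 enriched members became 8 with no fold threshold, beside 17.2% of all genes (3 to 3 without single replicates). The 38 depleted became 24 with the length trend removed, 22 with the GC trend removed and 75 with no fold threshold, beside 21.7% of all genes (38 to 40 without single replicates). Medians minus that of all genes, given as reported, with the length trend removed, with the GC trend removed and over fits without single replicates, were -0.47, -0.39, -0.41 and -0.49 to -0.45 for all members, -0.68, -0.38, -0.55 and -0.71 to -0.67 for SR, -0.64, -0.47, -0.49 and -0.67 to -0.59 for hnRNP, -0.37, -0.30, -0.26 and -0.40 to -0.33 for Rbm, and -0.50, -0.39, -0.46 and -0.51 to -0.46 for core snRNP genes.

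In UV-RIP the 1 enriched member became 3 with TMM, 3 without Gm26917 and Gm42418, 3 with DESeq2 size factors, 2 without the length trend, 0 without the GC trend and 4 with no fold threshold, beside 6.03% of all genes (1 to 1 without single replicates, but Rbm38 in place of Prpf40b without replicate 5). The 22 depleted became 4, 6, 6, 3, 0 and 79 (27.7% of all genes) in the same order (19 to 24 without single replicates). The length and GC fits also moved the median of all genes from -0.17 to 0, as TMM did to 0.01. Medians minus that of all genes, as reported, with a 1-UMI filter, without the length trend, without the GC trend and without single replicates, were -0.20, -0.22, -0.18, -0.14 and -0.22 to -0.17 for all members, -0.42, -0.45, -0.39, -0.27 and -0.43 to -0.40 for SR, and -0.26, -0.30, -0.25, -0.13 and -0.27 to -0.26 for hnRNP genes. Without single replicates they were -0.23 to -0.20 for Rbm and -0.16 to -0.10 for core snRNP genes.

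Without the replicate block the interaction was called higher in fRIP for 9 and lower for 19 members, against 16 and 30 with the plate pairing kept. The 16 became 8 with TMM, 7 without Gm26917 and Gm42418, 7 with DESeq2 size factors, 5 without the length trend and 7 without the GC trend (8 to 14 without single replicates, 8 without replicate 3 or 6), and the 30 became 40, 43, 40, 28 and 44 in the same order (20 to 30 without single replicates). Medians minus that of all genes, as reported, without the length trend and without single replicates, were -0.26, -0.18 and -0.31 to -0.21 for all members, -0.29, -0.07 and -0.32 to -0.21 for SR, -0.38, -0.27 and -0.40 to -0.34 for hnRNP, and -0.35, -0.29 and -0.38 to -0.30 for core snRNP genes, and -0.12 to -0.03 for Rbm genes without single replicates.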
